A study of Saccharomyces cerevisiae with 4 samples.

Results

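The loss of SIR4 in budding yeast cells that already lacked UBP10 was read from 2 arrays, the array labelled ubp10 sir4 double null set against the array of the ubp10 null. All 9275 probe sets that were not controls entered the comparison, of 9275 on each of the 4 arrays of the study, and those with a single gene symbol gave 5656 genes. The study held the haploid laboratory strain W303-1A as wild type and strains labelled ubp10 null, sir4 null and ubp10 sir4 double null. Each was grown exponentially and gave total RNA for 1 Affymetrix Yeast Genome S98 array. Both strains of the comparison lacked UBP10, so the only labelled difference between them was SIR4. With 1 array a side no difference below has a replicate, an error or a test, and only its size is given.

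Sir4 is a structural subunit of the Sir complex, which binds deacetylated nucleosomes and silences the chromatin of telomeres and of the silent mating cassettes HML and HMR. Ubp10 removes ubiquitin from histone H2B and takes part in silencing at the same places. W303-1A carries the a allele at the active mating-type locus, and its silent cassettes hold alpha and a information. When silencing is lost in such a haploid, alpha2 and a1 proteins are made together: alpha2 with Mcm1 represses the a-specific genes, and the a1-alpha2 pair represses the haploid-specific genes, as in a diploid cell.

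The unit throughout is the deposited MAS 4.0 average difference, a linear probe set intensity that can fall below 0. Values were raised to a floor of 6.67 units, which is 3 times the noise SD estimated from the negative values. Ratios were divided by the median ratio of the labelled double null over the ubp10 null, which was 1.29 over probe sets above the floor on both arrays. The call for a gene required a centred ratio of at least 2-fold and at least 13.3 units, or 2 times the floor, on its brighter array. Where the dimmer value was at the floor, the fold is a lower bound, written as at least N-fold.

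The deleted genes were examined first. UBP10 read 247.9 units in wild-type cells and 269.2 on the array labelled sir4 null, and was at the floor on the arrays of both strains labelled as lacking it. SIR4 read 10.8 units in wild-type cells, was at the floor in ubp10 null cells, and read 15.5 units on the array labelled double null and 20.7 on the array labelled sir4 null. The SIR4 probe set was therefore not lower where the labels say that the gene is absent, although even its wild-type value was under the brightness needed for a call. For this reason both strains are named by their labels throughout, and every direction below rests on those labels. The sources used here do not give whether the probe set lies inside the deleted part of SIR4.

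The arrays were of similar sensitivity but differed in the shape of their intensities. Between 69.4% and 73.7% of probe sets were above the floor. At the 98th percentile the intensity was 1559 units in ubp10 null cells and 990 on the array labelled double null, while the medians were 26.3 and 38.2 units. The array of the ubp10 null had signal in ribosomal RNA control probe sets, up to 75.0 units, that read at most 8.4 units on the array labelled double null. For ACT1, the actin gene, the 3′ probe set was 1.12 times as bright as the 5′ probe set in ubp10 null cells and 1.46 times on the array labelled double null. On the array labelled sir4 null it was 86.93 times as bright. The same ratio for SPT15 was 1.45 in ubp10 null cells, 2.0 on the array labelled double null and 18.69 on the array labelled sir4 null. For SRB4 it was 2.41 in ubp10 null cells and 6.69 on the array labelled double null. There the 5′ probe set of SRB4 read 7.5 units, close to the floor. These properties are given again beside the results they move with.

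Among the 5656 genes, 950 were called higher on the array labelled double null than in ubp10 null cells (16.8%) and 621 lower (11%). At 4-fold or more there were 114 higher and 152 lower genes, and at 16-fold or more 1 higher and 22 lower, so the lower side held the largest differences. The split depended on the centre: it was 1598 higher and 354 lower without centring, and 756 and 749 when the median ratio was taken over genes. Cyclic loess, which removes a trend of the ratio with brightness, gave 793 higher (14%) and 569 lower (10.1%), and shared 722 of the higher and 459 of the lower genes. The ratio followed brightness at the upper end. For genes that passed the floor on both arrays, the median log2 ratio was between 0.16 and 0.42 in the 5 dimmer sixths and -0.39 in the brightest sixth, where 19 genes were higher and 184 lower.

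**Figure D1:**
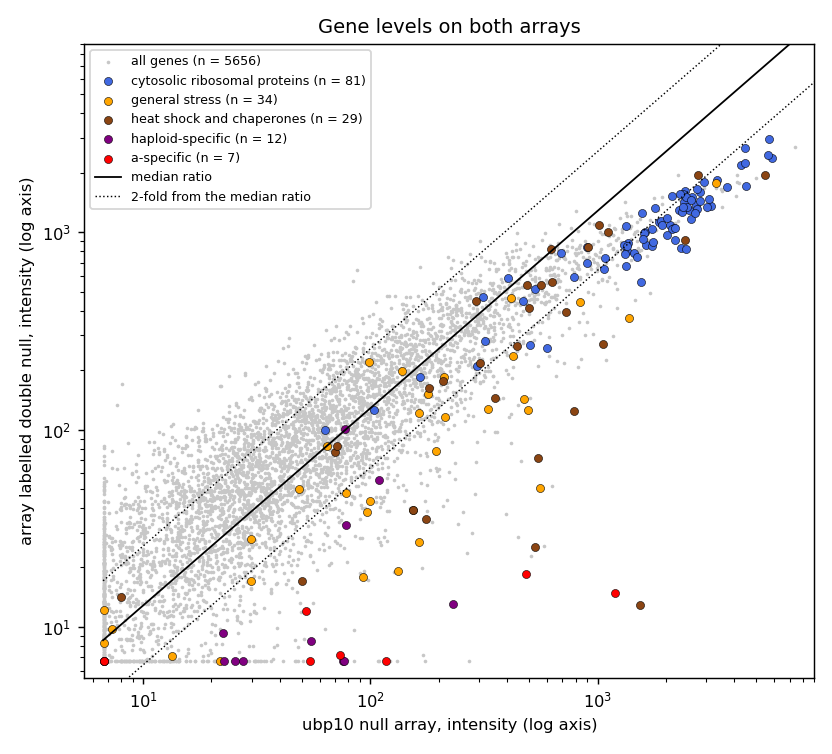
Each point is a gene, with its intensity in ubp10 null cells on the x axis and on the array labelled double null on the y axis, both logarithmic and floored at 6.67 units. The solid line is the median ratio (1.29) and the dotted lines lie 2-fold from it; the a-specific, haploid-specific and stress genes reach far below the lines, while the ribosomal protein genes run along the lower dotted line at high intensity.

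The a-specific genes encode the pheromone, receptor and surface proteins by which an a cell mates, and 6 of the 7 measured were called lower on the array labelled double null. The pheromone gene MFA2 read 1117.4 units in wild-type cells, 1195.7 in ubp10 null cells, 14.8 on the array labelled double null and 761.0 on the array labelled sir4 null. The difference from ubp10 null cells was 103.9-fold. MFA1, the other a-factor gene, read 607.0, 482.6, 18.6 and 404.6 units in the same order of arrays, and was 33.4-fold lower. For both pheromone genes the array labelled double null stood alone, far below the other 3.

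The receptor gene STE2, whose product binds alpha-factor, read 231.2, 117.1 and 174.4 units in wild-type cells, the ubp10 null and the array labelled sir4 null. It was at the floor on the array labelled double null, at least 22.6-fold lower than in ubp10 null cells. BAR1, which encodes the protease that degrades alpha-factor, read 73.9 units in ubp10 null cells and 7.2 on the array labelled double null, a 13.2-fold difference. AGA2, the binding subunit of a-agglutinin, went from 54.0 units to the floor, at least 10.4-fold lower, and STE6, the a-factor exporter, from 51.9 to 12 units, 5.6-fold lower. ASG7 was at the floor on both arrays. The median log2 ratio of the 7 genes was -3.72, against 0.05 over all genes, and -3.95 under cyclic loess. It was -4.37 with the floor halved and -2.81 with the floor doubled.

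Haploid-specific genes showed the same pattern: 10 of 12 were called lower and none higher, with a median log2 ratio of -2.22 (-2.17 under cyclic loess, -2.68 and -1.42 with the floor halved and doubled). All 3 subunits of the pheromone-coupled G protein were among them. STE18, the gamma subunit, read 50.7 units in wild-type cells, 75.7 in ubp10 null cells and 69.9 on the array labelled sir4 null, and was at the floor on the array labelled double null, at least 14.6-fold lower. GPA1, the alpha subunit, read 22.4 units in ubp10 null cells and 9.3 on the array labelled double null (3.1-fold lower), and STE4, the beta subunit, 109.4 and 55.7 units (2.5-fold lower). The 2 latter genes were brightest on the array labelled sir4 null, at 221.6 and 300.6 units.

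Downstream of the G protein, STE5, the scaffold of the mating kinase cascade, read 54.9 units in ubp10 null cells and 8.5 on the array labelled double null, 8.3-fold lower. The kinase gene FUS3 went from 22.8 units to the floor, at least 4.4-fold lower. FAR1, which arrests the cell cycle in response to pheromone, went from 76.5 units to the floor, at least 14.7-fold lower. RME1, a repressor of meiosis that a1-alpha2 is known to shut off, read 151.9 units in wild-type cells, 230.9 in ubp10 null cells, 13.0 on the array labelled double null and 122.5 on the array labelled sir4 null. RME1 was 22.8-fold lower.

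HO, the endonuclease gene of mating-type switching, read 27.5 units in ubp10 null cells, was at the floor on the array labelled double null (at least 5.3-fold lower) and read 232.3 units on the array labelled sir4 null. AXL1, needed for a-factor processing and axial budding, went from 25.5 units to the floor, at least 4.9-fold lower. RDH54, a recombination protein, read 78.1 and 32.9 units, 3.1-fold lower. The remaining members were AMN1, an antagonist of mitotic exit, with 77.1 and 100.9 units and no call, and NEJ1, an end-joining factor, at the floor on both arrays.

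**Figure D2:**
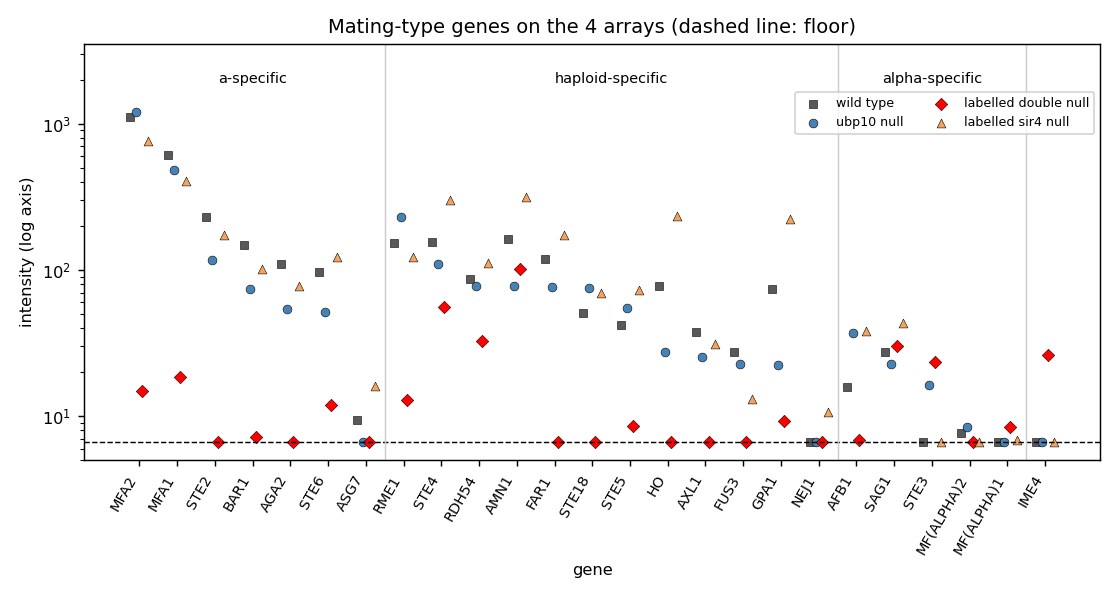
Intensity (log axis) of the a-specific, haploid-specific and alpha-specific genes and of IME4 on the 4 arrays; each point is 1 array, and the dashed line is the floor of 6.67 units. The array labelled double null lies lowest for MFA2, MFA1, STE2, BAR1, AGA2, STE6 and 10 of the 12 haploid-specific genes, and is the only array with IME4 above the floor.

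The alpha-specific genes, by contrast, gave 0 higher and 1 lower call of 5. MF(ALPHA)1 and MF(ALPHA)2, the alpha-factor genes, read at most 8.4 units on both arrays. STE3, the a-factor receptor gene, read 16.3 units in ubp10 null cells and 23.6 on the array labelled double null, and was at the floor on the other 2 arrays. SAG1, which encodes alpha-agglutinin, read 22.8 units in ubp10 null cells and had a log2 ratio of 0.03. AFB1, the a-factor barrier gene, was the lower member: 15.9 units in wild-type cells, 37.3 in ubp10 null cells, 6.9 on the array labelled double null and 38.5 on the array labelled sir4 null, 7.0-fold lower.

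The probe sets of the silent cassettes moved unevenly. Of 4 probe sets shared by the copies of alpha1 and alpha2, 1 was called higher, an alpha1 probe set that went from 14.8 to 93.1 units, 4.9-fold. The alpha2 probe sets went from 65.4 to 143.8 and from 82.8 to 71.3 units without a call, and the other alpha1 probe set was under the floor. The annotation pairs these probe sets with more than 1 copy. In a strain with the a allele at the active locus, as described for W303-1A, the only alpha1 copy is that of the silent alpha cassette. Which locus gave the signal of the alpha2 probe sets is not resolved.

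Genes of meiosis, which a1-alpha2 permits in starved diploids, were mostly silent: 24 of 42 were at the floor on both arrays, 2 were called higher and 3 lower. The higher members of the list were SPG5, described below as a gene of stationary phase, and IME4. The latter is the messenger RNA methyltransferase gene whose sense transcript a1-alpha2 is known to permit. IME4 was at the floor on the other 3 arrays and read 26.3 units on the array labelled double null, at least 3.1-fold higher than in ubp10 null cells. IME1, the master activator of meiosis, read 34.5 and 20.8 units, 2.1-fold lower, and SPO12, which acts in exit from meiosis and mitosis, 136.2 and 76.6 units, 2.3-fold lower. RME1 was the other lower member.

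Targets of the pheromone pathway were lower in 6 and higher in 4 of 27 genes (22.2% and 14.8%, against 11% and 16.8% of all genes). The median log2 ratio, -0.36, is the value that centring gives to a gene at the floor on both arrays, as 5 of the 27 were. PRM5, a pheromone-regulated membrane protein, read 139.3 units in wild-type cells, 288.4 in ubp10 null cells, 46.9 on the array labelled double null and 123.4 on the array labelled sir4 null, 7.9-fold lower. TEC1, a transcription factor of filamentous growth, read 291.0 and 68.5 units (5.5-fold lower), and SST2, which turns the G protein off, 31.3 and 11.8 units (3.4-fold lower). The higher members were CIK1, a kinesin partner with a role in nuclear fusion (15.6 and 82.3 units, 4.1-fold), the kinases STE7 (2.4-fold) and STE11 (2.3-fold) of the mating cascade, and FIG2, a mating surface protein at the floor in ubp10 null cells (at least 2.0-fold). The cascade was therefore not called in 1 direction: its scaffold and last kinase were lower and the 2 kinases above the last were higher.

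Heat shock and general stress genes were the other large block on the lower side. Of 29 heat shock and chaperone genes 13 were called lower and none higher, and of 34 general stress genes 20 lower and none higher, shares of 44.8% and 58.8% against the 11% of all genes. Their median log2 ratios were -0.86 and -1.22. Under cyclic loess the counts were 9 and 17 lower and the medians -0.50 and -1.03. The ubp10 null array carried the high values: the median general stress gene read 21.8 units in wild-type cells, 135.0 in ubp10 null cells, 50.1 on the array labelled double null and 30.2 on the array labelled sir4 null. For the heat shock list these medians were 179.0, 531.1, 265.9 and 303.8 units. The ribosomal RNA controls were raised on the same ubp10 null array, up to 75.0 units against at most 8.4 on the array labelled double null, and the part of that array in the stress differences was not tested.

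HSP30, a stress-induced plasma membrane protein, had the largest difference of all genes. It was at the floor in wild-type cells and read 1535.5 units in ubp10 null cells, 12.9 on the array labelled double null and 9.2 on the array labelled sir4 null, 153.1-fold lower on the array labelled double null. SSA4, an inducible Hsp70 chaperone, read 17.4, 531.1, 25.3 and 30.5 units in the same order, 27.0-fold lower. Both genes were bright on the ubp10 null array alone. BTN2, which gathers misfolded proteins, read 548.6 and 71.4 units in ubp10 null cells and on the array labelled double null (9.9-fold lower), and the small heat shock gene HSP42 790.0 and 124.9 units (8.1-fold lower). SSE2, an Hsp110 chaperone, was 6.4-fold lower and HSP26 5.1-fold lower.

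Of the general stress genes, SPI1, a cell wall protein gene, read 17.5 units in wild-type cells, 556.7 in ubp10 null cells, 50.6 on the array labelled double null and 19.7 on the array labelled sir4 null, 14.2-fold lower. GAD1, glutamate decarboxylase, was 8.9-fold lower, DDR2 7.8-fold and GPH1, glycogen phosphorylase, 6.7-fold. PNC1, the nicotinamidase that removes an inhibitor of Sir2, read 147.3, 1377.2, 366.4 and 194.2 units in that order and was 4.8-fold lower. It is also a member of the silencing list, described below. Trehalose and glycogen genes gave 6 lower and 2 higher of 20 (30% and 10%, against 11% and 16.8% of all genes). TPS2, trehalose phosphatase, read 330.8 and 127.0 units (3.4-fold lower). ATH1, acid trehalase, was at the floor and at 27.8 units (at least 3.2-fold higher), and GDB1, the glycogen debranching enzyme, was 2.1-fold higher.

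Relative to wild type, these lists lay above on the ubp10 null array and nearer to it on the array labelled double null. The median log2 ratio to wild type of the general stress list was 1.87 in ubp10 null cells and 0.58 on the array labelled double null, and that of the heat shock list 0.72 and 0.06. These ratios share the wild-type array with each other, and the ubp10 null and double null arrays with the comparison above. For the a-specific list the same medians were -0.88 and -4.84, and for the haploid-specific list -0.36 and -2.88. On the array labelled double null the stress medians were thus nearer to wild type than in ubp10 null cells, and the mating medians farther from it.

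Several other genes with large differences had the profile of HSP30. RTC3 read 14.5 units in wild-type cells, 578.3 in ubp10 null cells, 25.7 on the array labelled double null and 15.6 on the array labelled sir4 null, 28.9-fold lower. CIP1, a stress-responsive cell cycle inhibitor, was 28.5-fold lower, from 509.6 to 23.0 units. YRO2, a relative of HSP30, went from 170.2 to 7.2 units (30.4-fold), RGI1, a gene of respiratory growth, from 444.7 to 28.5 units (20.1-fold), STP4 from 265.2 to 23.6 units (14.5-fold) and EGO4 from 393.8 to 37.2 units (13.6-fold). ROQ1, which redirects a ubiquitin ligase under stress, and MGA1, a relative of the heat shock factor, read 272.8 and 173.5 units in ubp10 null cells. Both were at the floor on the other 3 arrays, at least 52.6-fold and 33.4-fold lower.

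Many non-coding RNAs were lower on the array labelled double null. Of 91 tRNA genes 38 were called lower and none higher, with a median log2 ratio of -0.93 (-0.89 under cyclic loess), and 28 were at the floor on both arrays. The size of this median depended on the floor: it was -1.39 with the floor halved and -0.34 with the floor doubled. The median tRNA gene read 7.0 units in wild-type cells, 13.5 in ubp10 null cells and 6.7, the floor, on both arrays labelled as lacking SIR4. The brightest of them, YNCC0001C, read 16.1 units in wild-type cells and 131.6 in ubp10 null cells and was at the floor on the others, at least 25.4-fold lower. Further tRNA genes such as YNCB0018W (120.0 units) and YNCJ0002C (122.3 units) had nearly the same profile, and copies of a tRNA family can share their signal.

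Among small nucleolar RNAs 11 of 57 were lower and 4 higher (19.3% and 7.02%, against 11% and 16.8% of all genes). The higher ones were SNR44, SNR51, SNR72 (2.6- to 3.0-fold) and SNR68 (at least 2.0-fold). SNR128, a guide for ribosomal RNA processing, read 34.1 units in wild-type cells, 109.7 in ubp10 null cells, 6.7 on the array labelled double null and 26.9 on the array labelled sir4 null, 21.1-fold lower. SNR8, also an snoRNA, had a log2 ratio of -3.59, and the ribosomal RNA gene RDN5-3 78.7 and 6.8 units, 14.9-fold lower. The ribosomal RNA controls were raised on the same ubp10 null array, and the part of the RNA or labelling of that array in these differences was not tested. The tRNA and small nucleolar RNA groups were formed after their values were seen.

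Over all 9275 probe sets 1166 were higher (12.6%) and 1416 lower (15.3%), a balance that turned to 1939 higher and 993 lower without centring. Of the 328 probe sets shared by several genes 18 were higher and 144 lower, and of the 2443 without a listed gene 123 and 440. The Ty1 and Ty2 retrotransposons, the most abundant mobile elements of the genome, accounted for some of these. Of 69 such probe sets 64 were lower and none higher, with a median log2 ratio of -1.82. Their median read 835.4 units in wild-type cells, 683.8 in ubp10 null cells, 261.5 on the array labelled double null and 228.5 on the array labelled sir4 null. Under cyclic loess 52 were lower, with a median of -1.31.

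Ty4 probe sets, from a rarer element, gave 3 higher and 1 lower of 31 with 12 at the floor on both arrays. Of 24 probe sets of the helicase family of the subtelomeric Y′ elements 8 were lower and none higher, with a median log2 ratio of -0.41 (-0.03 under cyclic loess). The retrotransposon and Y′ groups were formed after their values were seen, and probe sets within them share sequence, so their counts are not independent.

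On the higher side the differences were smaller and began from dim values in ubp10 null cells. SPG5, a proteasome regulator of stationary phase, read 30.7 units in wild-type cells, 8.1 in ubp10 null cells, 169.8 on the array labelled double null and 123.8 on the array labelled sir4 null, 16.3-fold higher. CYB2, the mitochondrial lactate dehydrogenase that feeds electrons to cytochrome c, was at the floor in wild-type cells and read 7.7, 132.9 and 108.8 units on the other arrays in that order, 13.4-fold higher. CAK1, the kinase that activates the main cell cycle kinase, read 31.1, 6.7, 83.0 and 93.3 units, 9.6-fold higher. All 3 were high on both arrays labelled as lacking SIR4.

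Next of the genes that passed the floor in both strains were the sterol synthesis gene ERG29, from 7.3 to 77.5 units (8.3-fold), and FRE1, a ferric and cupric reductase, from 8.6 to 85.2 units (7.7-fold). YGK3, a GSK3-type kinase, was 6.8-fold higher, ATS1 6.4-fold, the splicing factor gene SPP2 6.2-fold, the messenger RNA cap methyltransferase gene ABD1 6.1-fold and PEX5, the peroxisomal import receptor, 6.1-fold. Most of these genes were also dimmer in ubp10 null cells than in wild-type cells, as with ABD1, which read 62.2 units in wild-type cells and 13.6 in ubp10 null cells. Their selection by a high ratio over the same ubp10 null array favours low values there.

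Of the 950 higher genes 113 were at the floor in ubp10 null cells. The brightest were YIL014C-A (81.0 units on the array labelled double null, at least 9.4-fold), SPC1, a signal peptidase subunit (73.6 units, at least 8.6-fold), and SUE1, which acts in the turnover of cytochrome c (69.1 units, at least 8.1-fold). ADR1, the transcription factor of genes for ethanol and fat use, was above the floor on the array labelled double null alone, at 54.0 units, at least 6.3-fold higher. DAL7, a malate synthase of allantoin breakdown, read 30.4 units in wild-type cells, 52.7 on the array labelled double null and 168.8 on the array labelled sir4 null, at least 6.1-fold higher than in ubp10 null cells.

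Among lists with more higher calls than the 16.8% of all genes, the genes of the mitochondrial ribosome had 17 higher and 2 lower of 64, with a median log2 ratio of 0.63 (0.53 under cyclic loess, with 11 higher and 4 lower). Their median read 55.5 units in ubp10 null cells and 114.4 on the array labelled double null, where the medians over all genes were 41.5 and 65.4 units. RSM23 went from 8.3 to 49.8 units (4.7-fold), MRPS8 from 15.7 to 74.7 (3.7-fold) and MRPL39 from 118.4 to 474.5 (3.1-fold). The lower members were MRPL19 (2.1-fold) and MRPL49 (2.0-fold). Nuclear genes of the respiratory chain and ATP synthase, the other large mitochondrial list, had 3 higher and 2 lower of 41 and a median of 0.30. Under cyclic loess they had 8 higher and a median of 0.61. Besides CYB2, the higher members were CYC1, the main cytochrome c gene (303.6 and 903.8 units, 2.3-fold), and ATP5, an ATP synthase subunit (71.5 and 247.0 units, 2.7-fold). The lower members were CYC7 (2.0-fold) and COX5B (2.1-fold), the low-oxygen forms of cytochrome c and of a cytochrome oxidase subunit.

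Genes of the mitochondrial DNA itself gave 2 lower and no higher calls of 9 (22.2% lower, against 11% of all genes). ATP8 went from 30.7 to 11.9 units (3.3-fold lower) and ATP6 from 286.4 to 181.8 units (2.0-fold lower), both for ATP synthase subunits. COX1, COX2, COX3 and COB had no call, and the last 3 of these were brightest on the array labelled sir4 null, at 83.5, 138.0 and 88.3 units. The citric acid cycle had 2 higher and 1 lower of 22 (9.09% and 4.55%, against 16.8% and 11% of all genes). KGD2 (53.0 and 234.5 units, 3.4-fold) and LSC2 (68.3 and 248.1 units, 2.8-fold) were higher. KGD1 (526.4 and 283.7 units, 2.4-fold) was lower, although KGD1 and KGD2 encode subunits of the same dehydrogenase complex. Under cyclic loess KGD1 had a log2 ratio of -0.89, and no citric acid cycle gene was called lower. Gluconeogenesis and glyoxylate genes had 4 higher and 1 lower of 18 (22.2% and 5.56%, against 16.8% and 11% of all genes). PYC1, pyruvate carboxylase, went from 56.5 to 269.8 units (3.7-fold higher), ICL1, isocitrate lyase, from 9.6 to 37.7 (3.1-fold higher), IDP2 from 10.2 to 35.2 (2.7-fold higher) and MDH2 from 98.2 to 57.8 (2.2-fold lower). The fourth higher member was ADR1.

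The other ubiquitin proteases, the family of Ubp10, had 6 higher and none lower of 17 (35.3% higher, against 16.8% of all genes). Their median was 0.65 (0.67 under cyclic loess). UBP2 read 36.9 units in wild-type cells, 24.3 in ubp10 null cells, 102.2 on the array labelled double null and 114.1 on the array labelled sir4 null, 3.3-fold higher, and UBP13 9.9 and 39.9 units in ubp10 null cells and on the array labelled double null, 3.1-fold higher. UBP8, the H2B protease of the SAGA complex, read 62.1 and 63.3 units and had no call. Of 12 genes that place or remove ubiquitin on H2B only CDC73, a subunit of the Paf1 complex, was called, from 65.6 to 181.5 units (2.2-fold higher). The H2B ubiquitin ligase genes RAD6 (206.8 and 137.6 units) and BRE1 (38.7 and 91.8 units) had no call.

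Nutrient uptake genes were called in both directions. Phosphate genes had 6 higher and 2 lower of 24 (25% and 8.33%, against 16.8% and 11% of all genes). Their median was 0.61 (0.54 under cyclic loess). PHO84, the high-affinity phosphate transporter, read 71.5 units in wild-type cells, 11.6 in ubp10 null cells, 81.0 on the array labelled double null and 277.3 on the array labelled sir4 null, 5.4-fold higher. PHO4, the activator of the pathway, was lower, from 63.0 to 9.7 units (8.4-fold), as was PHM8, a phosphatase (94.1 to 18.5 units, 6.5-fold). KCS1, an inositol pyrophosphate kinase, was 3.9-fold higher and VTC3, a polyphosphate polymerase subunit, 3.6-fold.

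Iron and copper genes had 7 higher and 1 lower of 33, with a median of 0.06, a share of 21.2% that was near the 16.8% of all genes. ATX1, the copper chaperone, read 83.9 and 568.1 units, 5.3-fold higher. CTR3, a copper transporter, was at the floor in ubp10 null cells and read 40.7 units on the array labelled double null, at least 4.7-fold higher, and CCC2, the copper pump that ATX1 serves, was 2.6-fold higher. FRE3, a siderophore reductase, was the lower member, from 29.4 to 11.6 units (3.3-fold).

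Genes for poor nitrogen sources had 8 higher and 2 lower of 25 (32% and 8%, against 16.8% and 11% of all genes). Their median was 0.20 (0.47 under cyclic loess). DAL1, allantoinase, was at the floor and then at 50.2 units, a difference of at least 5.9-fold, and PUT2, of proline use, from 31.2 to 169.8 units, 4.2-fold higher. The lower members were the general amino acid permease gene GAP1 (1366.0 and 870.5 units, 2.0-fold), whose log2 ratio was -0.12 under cyclic loess, and GAT1, an activator of such genes (496.9 and 310.0 units, 2.1-fold). Hexose transport genes had 3 lower of 18 (16.7%, against 11% of all genes) and none higher. Among the lower were HXT6, a high-affinity transporter, from 954.7 to 304.5 units (4.0-fold), and HXT7, from 675.0 to 394.6 units (2.2-fold). The glucose sensor gene SNF3 was the third, from 18.7 to 8.3 units (2.9-fold). HXT6 and HXT7 are nearly identical and can share signal.

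Ergosterol genes had 7 higher and 1 lower of 30 (23.3% and 3.33%, against 16.8% and 11% of all genes). Their median was 0.30 (0.56 under cyclic loess). Besides ERG29, CYB5, the cytochrome b5 gene, went from 63.7 to 320.7 units (3.9-fold higher), while ERG11, the main demethylase of the pathway, went from 1653.7 to 759.0 units (2.8-fold lower). Under cyclic loess no ergosterol gene was lower. Ribosome biogenesis genes had 15 higher and 4 lower of 88, close to the share of all genes on the higher side, led by BFR2 (16.7 and 100.4 units, 4.7-fold higher) and PWP2 (8.2 and 44.9 units, 4.3-fold higher). Their lower members were RPA190, the largest subunit of RNA polymerase I (2.5-fold), DBP3 (2.4-fold), UTP8 and UTP22 (2.0-fold each).

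Proteasome genes had 4 higher of 33 and none lower, a share of 12.1% that was below that of all genes. The ATPase subunit gene RPT2 went from 29.3 to 143.6 units (3.8-fold), RPT4 from 40.7 to 140.3 (2.7-fold), and the catalytic core subunit gene PUP1 from 128.4 to 474.3 (2.9-fold) and PUP3 from 220.6 to 746.1 (2.6-fold). All 4 were also dimmer in ubp10 null cells than on each of the other 3 arrays. They were picked by a high ratio over that same ubp10 null array, which favours low values there. Over all 33 genes the median log2 ratio of ubp10 null cells to wild type was -0.07. Genes of ER folding had 1 call in each direction of 20, SBH1, a translocon subunit (72.9 and 286.0 units, 3.1-fold higher), and HAC1, the activator of the unfolded protein response (148.4 and 93.7 units as the mean of its probe sets, 1 of them at the floor on both arrays, 2.0-fold lower). Cyclins and cell cycle regulators had 6 higher and 4 lower of 24 (25% and 16.7%, against 16.8% and 11% of all genes). CLB2, the main mitotic cyclin, read 14.8 and 61.2 units (3.2-fold higher) and PCL5, a cyclin that destabilises Gcn4, 369.8 and 143.2 units (3.3-fold lower). The other lower members were the G1 cyclin gene CLN3 (2.3-fold), the kinase inhibitor gene SIC1 (2.0-fold) and WHI5, which represses the G1 program and went from 15.5 units to the floor (at least 3.0-fold).

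Lists made of the brightest genes had many lower calls that did not hold under cyclic loess. Of 81 cytosolic ribosomal protein genes 58 were lower and none higher, with a median log2 ratio of -1.18. Their median read 1838.2 units in wild-type cells, 2029.2 in ubp10 null cells, 1078.2 on the array labelled double null and 1101.8 on the array labelled sir4 null. Under cyclic loess 2 were lower and the median was -0.10. Of 25 glycolysis and fermentation genes 14 were lower and none higher, with a median of -1.18, against 1 lower and -0.16 under cyclic loess. TDH3, the main glyceraldehyde phosphate dehydrogenase gene, read 4962.1 and 1888.2 units (3.4-fold lower, and a log2 ratio of -0.30 under cyclic loess). TDH1, its stress-induced relative, read 19.2 units in wild-type cells, 234.6 in ubp10 null cells, 56.3 on the array labelled double null and 56.4 on the array labelled sir4 null. TDH1 was 5.4-fold lower, with a log2 ratio of -2.49 under cyclic loess.

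Cell wall genes had 16 lower and 3 higher of 38 with a median of -0.71, and 7 lower and 4 higher with a median of -0.15 under cyclic loess. Some of them differed under both scalings: TIP1, a mannoprotein, read 1172.5 and 296.3 units (5.1-fold lower), PST1, a protein of wall stress, 845.8 and 227.4 units (4.8-fold lower) and CRH1, a transglycosylase, 876.1 and 300.7 units (3.7-fold lower). The higher members were HPF1, a mannoprotein (87.1 and 645.7 units, 5.8-fold), DSE1, a gene of daughter cell separation (3.2-fold), and CHS3, chitin synthase (2.5-fold). The related seripauperin and DAN/TIR mannoproteins had 3 lower and 1 higher of 13 (23.1% and 7.69%, against 11% and 16.8% of all genes). The lower members were TIP1, TIR2 (2.8-fold) and PAU10 (2.1-fold), and the higher member was PAU7 (2.2-fold). Sulfate and methionine genes had 7 lower and none higher of 31, and 1 lower and 1 higher under cyclic loess. Translation factors had 7 lower and 6 higher of 33, with 3 lower under cyclic loess. Both scalings called ANB1, the low-oxygen form of translation factor eIF5A, lower, from 235.9 to 67.4 units (4.5-fold).

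**Figure D3:**
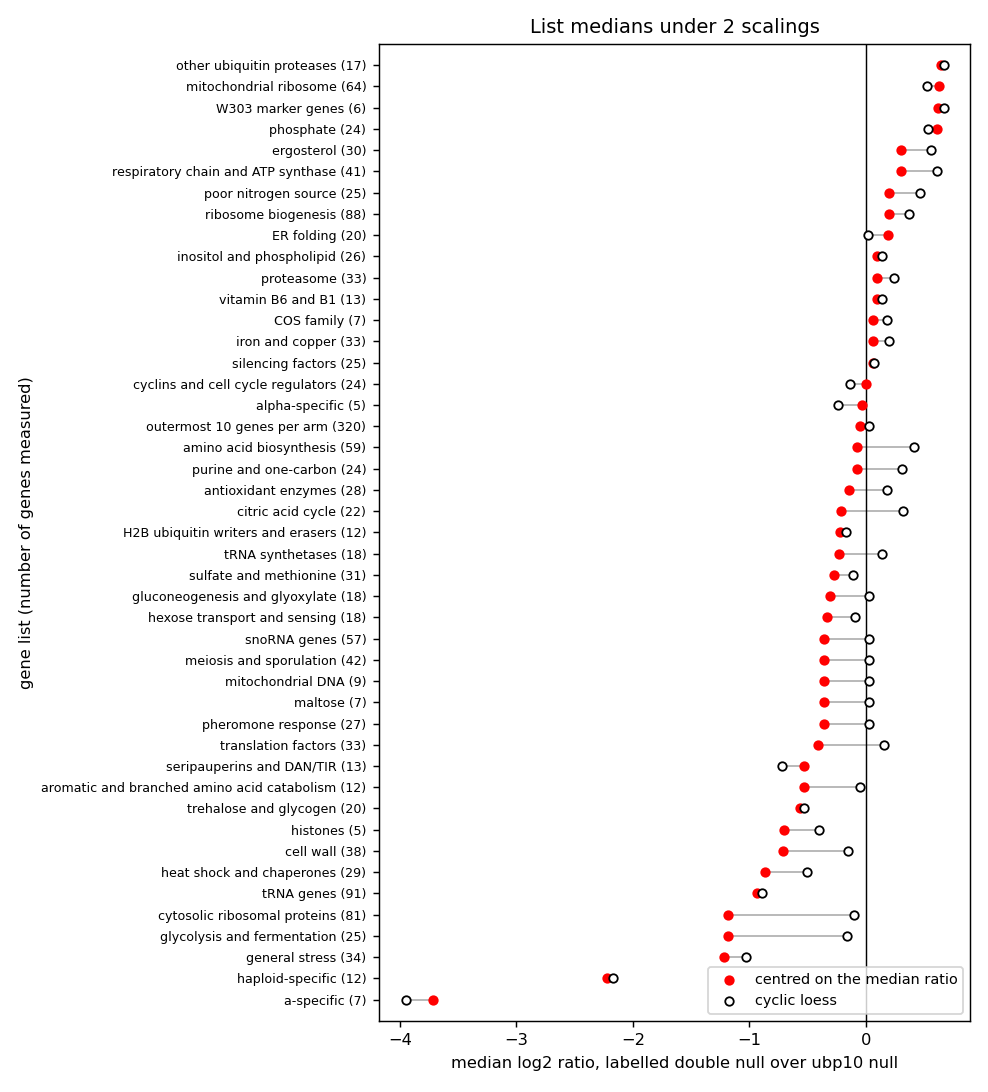
Median log2 ratio of each gene list, labelled double null over ubp10 null, with the number of genes measured in brackets; filled points are ratios centred on the median ratio and open points are ratios after cyclic loess. The a-specific, haploid-specific, general stress, heat shock and tRNA lists lie at -0.50 or below under both scalings, whereas the ribosomal protein and glycolysis lists move from -1.18 to -0.10 and -0.16. With the floor doubled, which is not drawn, the tRNA median was -0.34.

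Metabolic lists with few calls included amino acid biosynthesis (7 higher and 6 lower of 59), the purine and one-carbon genes (3 and 3 of 24), and the tRNA synthetases (0 and 0 of 18). Of the purine and one-carbon genes, ADE1 (744.7 and 327.9 units, 2.9-fold), SHM2 (2.5-fold) and ADE13 (2.0-fold) were lower, and PRS1, AAH1 (3.1-fold each) and ADE4 (at least 2.9-fold) higher. Antioxidant enzymes had 4 higher and 6 lower of 28, shares of 14.3% and 21.4% against 16.8% and 11% of all genes. GSH2, glutathione synthetase, read 52.3 and 218.6 units (3.2-fold higher). YAP1, the activator of the oxidative response, was 2.7-fold, DOT5 2.5-fold and CTA1 at least 2.1-fold higher. GPX1 was 2.6-fold and GRX1 2.4-fold lower. Of the aromatic amino acid catabolism genes, ARO9 read 21.5 units in wild-type cells, 745.6 in ubp10 null cells, 702.8 on the array labelled double null and 559.9 on the array labelled sir4 null, with no call between the 2 strains compared. ARO10, the decarboxylase of the pathway, read 13.3, 1048.2, 577.8 and 380.9 units, 2.3-fold lower and a log2 ratio of -0.50 under cyclic loess. SNO1, of vitamin B6 synthesis, read 365.1, 127.6, 19.0 and 17.0 units, 8.6-fold lower, and its partner SNZ1 648.9, 137.2, 78.6 and 72.1 units, 2.2-fold lower. Both were lower in each mutant than in wild-type cells. BUD16, the pyridoxal kinase of the same pathway, was higher, from 11.3 to 63.5 units (4.4-fold). Of 6 genes that are marker loci in W303 strains only TRP1 was called, from 11.7 to 36.2 units (2.4-fold higher).

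Among inositol and phospholipid genes 4 of 26 were higher and 2 lower (15.4% and 7.69%, against 16.8% and 11% of all genes). EKI1, ethanolamine kinase, was at the floor and at 36.0 units (at least 4.2-fold higher), CDS1 from 68.7 to 212.0 (2.4-fold higher), PSD2 from 26.5 to 78.6 (2.3-fold higher) and EPT1 from 33.7 to 87.8 (2.0-fold higher). The lower members were FAS1 and FAS2, whose probe sets are described at the end.

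Silencing itself acts near chromosome ends, so genes were ordered by their rank from the end of each arm. Only measured genes with a probe set of their own were ranked, so genes near the ends whose probe sets are shared were left out. Of the 320 genes among the outermost 10 of each of the 32 arms, 41 were higher and 26 lower, with a median log2 ratio of -0.05. The share called higher was 10% at ranks 1 to 5, 15.6% at ranks 6 to 10, and 17.8% from rank 41 inward, and the share called lower was 7.5%, 8.75% and 10.3%. In the outermost 5 genes 18.1% were at the floor on both arrays, against 5.52% from rank 41 inward. Among the genes ranked, neither direction was therefore more frequent at the ends than inside the arms, and genes without a probe set of their own were not covered.

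The subtelomeric COS family gave no call of 7 members, with a median of 0.06, but probe sets within it differed. The mean of COS8, 202.2 and 287.9 units, covered probe sets with log2 ratios of -1.05, 0.13 and 1.36. COS4 read 228.2 and 342.8 units in ubp10 null cells and on the array labelled double null. The maltose genes, also near chromosome ends, gave no call of 7, all at 25.0 units or less. Some end genes did differ: DIA1, a gene of invasive growth, went from 462.1 to 69.0 units (8.6-fold lower), and PHO84 and HPF1, already described, lie among the outermost 10. The median log2 ratio of a nuclear chromosome ranged from -0.01 for chromosome XI to 0.26 for chromosome III, which carries the mating-type loci.

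The 25 silencing factors gave 4 higher and 2 lower calls and had a median of 0.06. Their shares of 16% and 8% were near the 16.8% and 11% of all genes. The lower members were PNC1 and SUM1, a repressor of mid-meiotic genes (165.8 and 96.1 units, 2.2-fold). RAP1, which recruits Sir4 to telomeres and also activates ribosomal protein genes, read 37.0 units in wild-type cells, 12.4 in ubp10 null cells, 77.8 on the array labelled double null and 72.3 on the array labelled sir4 null, 4.9-fold higher. DOT1, the histone H3 methyltransferase, was 3.8-fold higher, from 10.2 to 50.5 units. SAS2 and SAS5, of the acetyltransferase that limits the spread of silencing, were at the floor in ubp10 null cells and at least 2.4-fold and 2.8-fold higher. Histone genes with a symbol of their own numbered 5, of which HTZ1, the H2A.Z variant, was 2.2-fold higher and HTB1 and HTB2, for H2B, were 2.6-fold and 2.5-fold lower. The log2 ratios of the H2B genes were -0.40 and -0.69 under cyclic loess.

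The effect of SIR4 loss can also be read where UBP10 is present, from the array labelled sir4 null against the wild type, which shares no array with the comparison above. There 359 genes were higher (6.35%) and 527 lower (9.32%). Of the 950 genes higher in the ubp10 background 17.3% were also higher with UBP10 present, which is 45.7% of the 359, and of the 621 lower genes 31.9% were also lower, or 37.6% of the 527. Across the 4642 genes above the floor on all 4 arrays the log2 ratios correlated with a Pearson r of 0.42 and a Spearman rho of 0.45, and 0.34 and 0.37 under cyclic loess. These coefficients are over genes, which are not independent replicates, and both arrays labelled as lacking SIR4 had the narrower range of bright intensities.

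Ribosomal protein genes and Ty1 and Ty2 probe sets had low centred ratios in both comparisons, although for the ribosomal protein genes nearly all calls in the ubp10 background were lost under cyclic loess. With UBP10 present 59 of 81 ribosomal protein genes were lower, with a median of -1.20, and 58 of 69 Ty1 and Ty2 probe sets, with a median of -2.03. CYB2 was higher in both, with log2 ratios of 3.75 and 3.56, as were FRE1 (2.95 and 1.88), CTR3 (2.25 and 2.08) and DAL1 (2.55 and 2.72). SNO1 was lower in both (-3.11 and -4.89).

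The mating and stress genes had unlike values in the 2 comparisons, and with 1 array a side that difference could not be tested. With UBP10 present the a-specific genes had a median of -0.96 with 3 of 7 lower, by log2 ratios of -1.05 for MFA1, -1.02 for MFA2 and -1.01 for BAR1. The haploid-specific genes had a median of 0.14, with 2 higher (HO and GPA1, both 1.11) and 1 lower (FUS3, -1.51). The FUS3 value rested on a probe set with 56.0 units in wild-type cells and -1.3 on the array labelled sir4 null. Another FUS3 probe set read 54.6 and 52.1 units. The array labelled sir4 null therefore lacked the low mating-gene values of the array labelled double null. Loss of silencing, as described above, represses these genes, and SIR4 itself read 20.7 units on that array against 10.8 in wild-type cells. Whether the label of that array is right was not tested, so these values do not show what SIR4 loss alone does to the mating genes. The alpha1 probe set that was 4.9-fold higher in the ubp10 background read 17.3 units in wild-type cells and 57.2 on the array labelled sir4 null. The heat shock and general stress lists had medians of -0.34 and -0.01 with UBP10 present, against -0.86 and -1.22 without it. The large 3′ to 5′ ratio of ACT1 marked the array labelled sir4 null, and its part in these values was not tested.

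**Figure D4:**
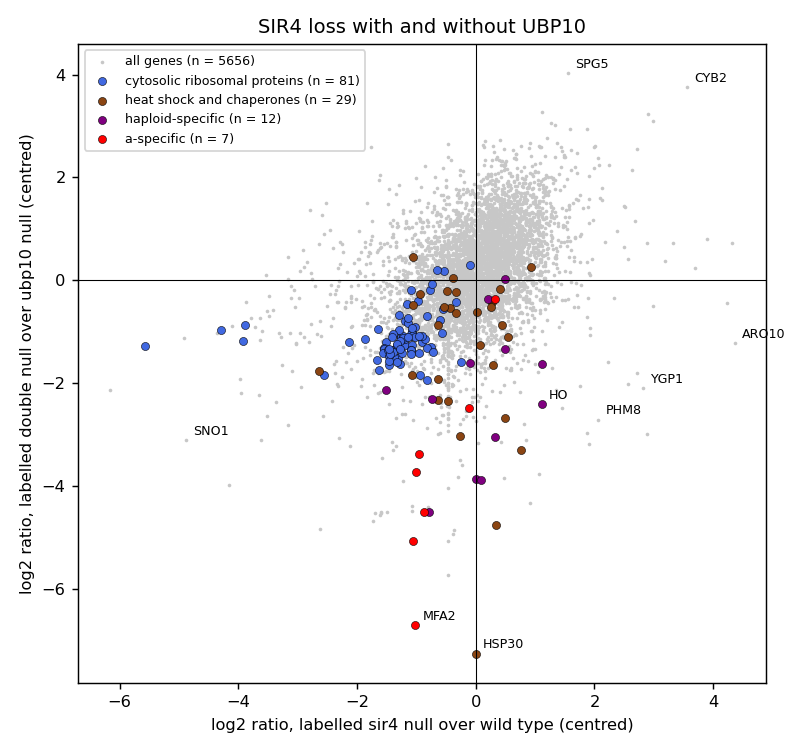
Each point is a gene, with its centred log2 ratio for the array labelled sir4 null over the wild type on the x axis and for the array labelled double null over the ubp10 null on the y axis. Ribosomal protein genes lie in the lower left, below 0 on both axes for most of them, while the a-specific, haploid-specific and heat shock genes with the lowest values on the y axis lie near -1 to 1 on the x axis.

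Genes called in opposite directions in the 2 comparisons numbered 47 of 5656, of which 26 were higher in the ubp10 background and lower with UBP10 present. Calls in the same direction were more frequent, with 164 genes higher in both comparisons and 198 lower in both. YGP1, a secreted glycoprotein of nutrient stress, read 43.3 units in wild-type cells, 475.4 in ubp10 null cells, 143.0 on the array labelled double null and 420.6 on the array labelled sir4 null. Both arrays of the single nulls were thus high for YGP1, with the array labelled double null between them and the wild type. PHM8 had the same order, with the floor in wild-type cells and 94.1, 18.5 and 38.4 units on the other arrays, as did TPO2, a polyamine exporter, with 36.8, 317.6, 98.2 and 171.3 units. PMA2, a proton pump, had the reverse pattern, with 31.4 units in wild-type cells, the floor in ubp10 null cells, 51.7 units on the array labelled double null and 12.8 on the array labelled sir4 null.

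Where a gene had several probe sets, these often differed. Of 238 such genes with a bright probe set 80 had probe sets whose ratios lay over 4-fold apart, and the SD between probe sets of a gene was 1.16 log2 units. FAS1 and FAS2, the fatty acid synthase genes, are tiled by many probe sets and were called lower, but several of these were at the floor on the array labelled double null or on both arrays, so no fold is given. For FAS1 a plain probe set read 743.0 units in ubp10 null cells and 460.6 on the array labelled double null, while another read 143.9 and 3.7 units. For FAS2 the probe sets differed in direction. A plain one went from 259.0 to 523.5 units, a log2 ratio of 0.65, while another went from 487.4 to 10.6 units. Of the 680 probe sets of the 105 genes with 4 or more probe sets, 163 were lower and 36 higher. The sources used here do not give where in its transcript a probe set lies.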

How the data were processed

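Total RNA of 4 strains was hybridised to 1 Affymetrix Yeast Genome S98 array each, with no replicate. The authors deposited an intensity per probe set, computed with MAS 4.0 per the labels; the sources used here do not give any scaling, but a trimmed mean without the lowest and highest values was 100.0 on each array. Of 9335 probe sets 60 were controls. Of the other 9275, 6504 had 1 gene symbol in the platform annotation, all matched to the RefSeq gene table, 328 had several and 2443 were not listed there. Floored log2 values were averaged over the probe sets of a gene; 315 of the 5656 genes had more than 1. The noise SD, scaled from the median size of the negative values, was 2.22 units.

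Named genes followed a rule: the deleted and mating-type genes, the 15 largest rises and falls above the floor on both arrays, the 8 brightest genes per direction with the other array at the floor, up to 5 called members per list with the largest ratios, and all members of lists of at most 12 genes. The rule also took 10 opposite calls, ranked by the size of the smaller of their 2 ratios. A few further genes were chosen after their values were seen. The members, lists and tests were chosen with earlier results of these data known. Median levels of lists are over floored values. Quantile normalization and cyclic loess used R 4.3.3 with limma 3.58.1; all else used Python 3.11.15, numpy 2.4.6 and pandas 2.3.3. No p-value was computed. Precision is limited by the number of arrays. Sequences, coordinates and promoter motifs were not analysed here.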

Additional observations from a re-analysis of the deposited data

Results flagged for a closer look

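Of the 47 genes, out of 5656, that were called in opposite directions in the 2 comparisons, 10 are given here. They are ranked by the size of the smaller of their 2 ratios. In these the array labelled double null and the array labelled sir4 null moved in opposite directions from the arrays they were set against. With 1 array a side the difference was not tested. The log2 ratio in the ubp10 background and the log2 ratio with UBP10 present were -2.10 and 2.81 for YGP1, -2.71 and 2.06 for PHM8, -2.06 and 1.75 for TPO2 and -1.80 and 2.72 for YMR030W-A. In the other direction they were 2.59 and -1.76 for PMA2 and 1.95 and -1.63 for YMR253C. The remaining 4 were non-coding genes: YNCD0013C with -2.99 and 2.88, YNCL0007W with -2.02 and 2.57, YNCJ0008W with -3.18 and 1.91 and YNCO0012C with -2.97 and 1.87.

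Control probe sets for ribosomal RNA, which enter no comparison, had signal on the ubp10 null array. The 2 brightest for the small subunit RNA read 48.9 and 39.3 units there, against -0.7 and 3.0 in the wild type and -0.2 and -0.5 on the array labelled double null. For the large subunit RNA 2 probe sets read 27.6 and 75.0 units, against 3.7 and 11.6 in the wild type and 0.3 and 8.4 on the array labelled double null.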

How the results depend on the processing

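Named genes were checked under other centring, quantile normalization, cyclic loess and a halved or doubled floor, but not under another choice of probe sets. None of the 276 turned there from a log2 ratio of at least 1 in size to the other sign, whereas 24 with smaller ratios did. List medians were also checked under other choices of probe sets, and 20 of 46 changed sign under at least 1 alternative, 14 under cyclic loess. Examples are the citric acid cycle (-0.21 to 0.32) and translation factors (-0.41 to 0.16) under cyclic loess, the antioxidant enzymes (-0.14 to 0.23) without centring and gluconeogenesis (-0.31 to 0.31) with the floor halved. Without centring, and equally with the median taken over all probe sets, 1598 genes were higher and 354 lower, and 1939 probe sets were higher and 993 lower. A ratio of 1.5 gave 1691 and 1080 genes and 2044 higher probe sets, a ratio of 3 gave 307 and 256 genes and 395 and 740 probe sets, and a ratio of 4 gave 114 and 152 genes and 155 and 410 probe sets; these follow from the thresholds. Quantile normalization, cyclic loess, the floor, the brightness rule, the choice of probe sets and a centre over genes kept the gene counts within 1.5 times. Of the named genes' values under alternatives 1512 kept their call, 129 lost it and 15 gained it, and 142 of 370 list medians moved beyond the spread allowed. The causes were not tested. The correlation of the 2 readings of SIR4 loss ranged from 0.34 to 0.44. No paired analysis was possible because each group holds 1 array, and no replicate could be left out for the same reason. Promoter motifs were not run. Signals under 13.3 units limit any call.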
